A study of Homo sapiens with 2 samples.

Results

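The genes described here were 52 protein-coding genes of DNA replication, out of 20098 protein-coding genes in the annotation. They were taken as a list by function and sorted into roles: 15 genes of origin licensing, 9 of helicase activation, 12 of the replicative polymerases, 8 of the sliding clamp and Okazaki fragment maturation, 3 of single-stranded DNA binding, 4 of fork protection, and MCM8. For each gene, the deposited peaks that overlapped 1000 bp either side of any of its transcription start sites (TSSs) were collected, and the strongest of them was called its best promoter peak. To map the binding of MYBL2, a MYB family transcription factor, the study used chromatin immunoprecipitation followed by sequencing (ChIP-seq) in A673, an established Ewing sarcoma cell line, labelled wild type. There were 2 libraries, 1 from the MYBL2 immunoprecipitation and 1 from input chromatin, and no replicate, so replicate error is unknown throughout. The antibody is given by the labels as one against MYBL2 and by the study's methods as one against the phosphorylated, activated form. A peak list holds no expression values, so the cell type could not be checked against marker genes, and nothing here says whether a bound gene was transcribed.

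Replication starts when the origin recognition complex (ORC) and its partners CDC6 and CDT1 load the MCM helicase onto DNA in G1 phase, a step called licensing. In S phase the kinase CDC7 with DBF4, and the factors CDC45 and GINS, switch the helicase on, and the polymerases, the clamp PCNA and its loader RFC copy both strands. Many of these genes are known targets of E2F transcription factors at the G1 to S transition, and MYBL2 is known to join the MuvB complex at cell cycle gene promoters, where DNA elements called E2F sites and CHR elements recruit related complexes.

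To show the promoters in letters, E2F words were searched within 100 bp of the canonical TSS, the start of the annotation's reference transcript for each gene. The word TTCCCGC was searched on either strand, as were the variant TTGGCGC, the variant TTCGCGC and the variant TTGCCGC, and words on opposite strands can overlap one another. Below are 29-base windows of GRCh37 (the hg19 coordinates) centred on the word nearest to that TSS, read on the strand of the gene, with the letters of E2F words in capitals. They show the helicase subunits that could be compared side by side, the largest ORC subunit, the leading polymerase and clamp loader examples, and all fork protection genes.
MCM2, chr3:127317246-127317274, plus strand: gtgaaccacttTTCGCGCGAAacctggtt
MCM3, chr6:52149526-52149554, minus strand: gttcggaagttTTCGCGCcggggtggagt
MCM5, chr22:35796119-35796147, plus strand: gcctcttgtttTTCCCGCgaaactcggcg
MCM6, chr2:136634082-136634110, minus strand: ggtcaggtTTGGCGCGAAatctccagctc
MCM7, chr7:99699008-99699036, minus strand: ggcgacgtTTCGCGCCAAtttcggttggc
ORC1, chr1:52870097-52870125, minus strand: cacgccgaTTGGCGCGAAgttttcttttc
CDC6, chr17:38444128-38444156, plus strand: gccattcggatTTGGCGCgagcgcggctg
POLE, chr12:133263929-133263957, minus strand: tgggtgggagcGCGCCAAatttctcccct
POLE2, chr14:50154920-50154948, minus strand: ctgcggcggtgGCGCCAAatcgcaaatat
RFC3, chr13:34392220-34392248, plus strand: atttggagctcGCGGGAAaacttgtctct
TIMELESS, chr12:56843184-56843212, minus strand: ccgcctcgctcTTCGCGCaggcggggacc
TIPIN, chr15:66649068-66649096, minus strand: gcacggatTTGGCGCCAAacgctgcgggc
CLSPN, chr1:36235567-36235595, minus strand: actctggctggGCGGGAAagcaagaacag
WDHD1, chr14:55493778-55493806, minus strand: cgagccgaagcGCGGGAAgcagctcttgt

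In MCM2, MCM6, MCM7, ORC1 and TIPIN, words on opposite strands overlapped, which gives 1 longer capital stretch. In MCM3 and MCM5 the centre of the word lay on the canonical TSS itself (0 bp), and in POLE2, CLSPN and MCM7 it lay 2 bp upstream. Across the whole list, 37 of 52 genes had such a word within 100 bp of the canonical TSS (71.2%), against 12.3% of 19819 coding genes, 16.3% of the 13200 coding genes with a CpG-rich promoter and 15.4% of bound coding genes. This count reads only the genome and used no peak. Of the 37 genes, 25 had the word within 20 bp of the TSS (67.6%), against 23.9% of the 2443 coding genes with a word, where the 20 bp were chosen after the positions were seen. By role, a word was found in 11 of 15 licensing genes, 6 of 9 helicase activation genes, 8 of 12 polymerase genes, 6 of 8 clamp and Okazaki genes, 1 of 3 single-strand binding genes and all 4 fork protection genes. A match is a description of letters, not a bound site.

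All 52 genes had a promoter peak (100%). The background was high, since 59.4% of all coding genes had one, and 79.1% of the coding genes with a CpG-rich promoter, that is, with a CpG observed to expected ratio of at least 0.6 within 500 bp of the TSS. Of the replication genes 49 were CpG-rich, and PRIM2 (ratio 0.46), POLD4 (0.45) and RPA3 (0.13) were not. The genes also had more annotated start sites than usual, with a median of 7.5 against 5 for all coding genes. With the canonical TSS alone, 51 of 52 had a peak, against 55.8% of coding genes, and the exception was RPA3.

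Strength was read as the authors' fold enrichment, a linear ratio of the fragments piled up at the peak summit to a background. The background was taken locally from the input, or was a genome-wide floor of 3.45 fragments. A small constant was added to both sides of the ratio. The best promoter peaks of the replication genes had a median fold enrichment of 11.3 (range 3.97 to 28.1), against 8.67 for all bound coding genes and 8.99 for CpG-rich ones. A fold enrichment of at least 5 was reached by 50 genes (96.2%, against 49.6% of coding genes), and one of at least 10 by 37 genes (71.2%, against 23.1% of coding genes and 32.7% of CpG-rich coding genes). Of the 52 genes, 45 lay above the coding median and 11 lay in the top 10% of bound coding genes.

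The pileup recovered from the deposited values gave each fold enrichment an exact Poisson interval. It covers the counting error of the ChIP pileup only. The background was held fixed, so its own counting error is left out and the intervals are too narrow to that extent. These 95% intervals lay wholly above the coding median for 26 genes, wholly below it for 6 and held it for 20. The 6 weak genes were ORC4 and MCM5 among the licensing genes and POLA1, PRIM2, POLD2 and POLD4 among the polymerase genes. A low fold enrichment can reflect a high local background as well as a low pileup. MCM5 had 22 fragments over a background of 3.73. PRIM2 and POLD2 had 46 over 6.53, while GINS2 had 46 over the floor of 3.45 and a fold enrichment of 10.56. Over all 1326 pairs of genes, the intervals were apart in 473 (35.7%), so those of most pairs overlapped. Overlap alone does not show that the genes of a pair were equally enriched, and pairs were not tested.

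**Figure D1:**
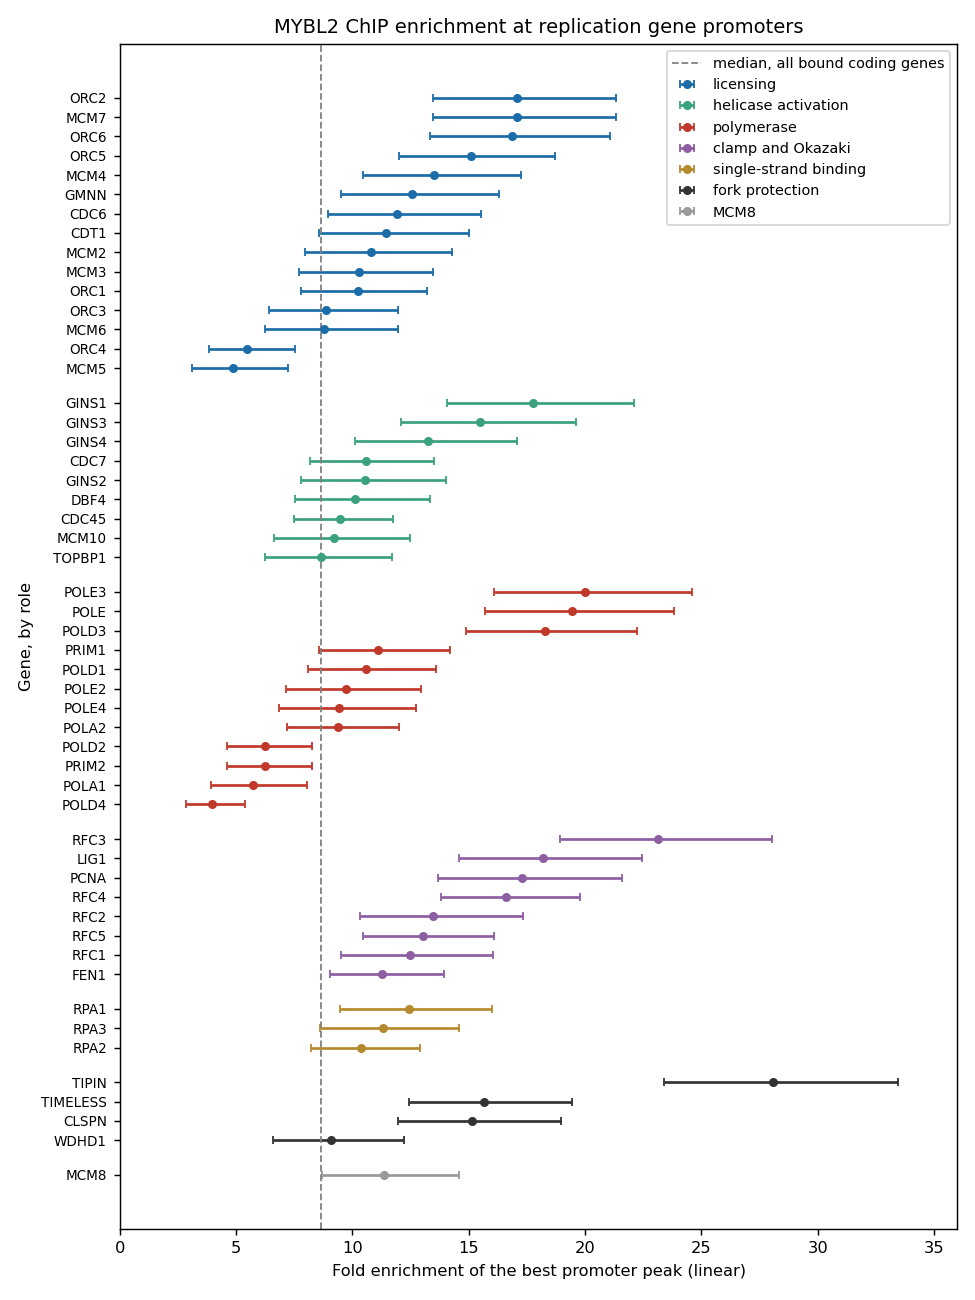
Fold enrichment of the best promoter peak (horizontal axis, linear) of the 52 replication genes, 1 row per gene and grouped by role. Points are the authors' values, bars are exact Poisson 95% intervals of the pileup, and the dashed line marks 8.67, the median of all bound coding genes; TIPIN stands farthest right at 28.1, and POLD4 farthest left at 3.97.

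Among the licensing genes the median was 11.5, and 11 of 15 reached a fold enrichment of 10. The strongest were ORC2, a core ORC subunit (17.1, interval 13.5 to 21.3, pileup of 75 fragments, chr2:201827716-201828768), and MCM7, a subunit of the MCM helicase, with the same fold enrichment and pileup (chr7:99697542-99700319). The weakest was MCM5, another helicase subunit (4.86, interval 3.13 to 7.25, 22 fragments, chr22:35795603-35796446). The MCM7 and MCM5 intervals did not overlap, although the proteins sit in the same ring.

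The ORC genes spread almost as widely. ORC6 had 16.9 and ORC5 15.1, ORC1 had 10.2 and ORC3 8.88, and ORC4 had 5.46 (interval 3.85 to 7.53). The ORC median was 12.7. The 3 genes that control loading were close together, with 11.9 at CDC6 and 11.5 at CDT1, both loading factors, and 12.6 at GMNN, which encodes geminin, the inhibitor of CDT1.

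Of the remaining helicase subunits, MCM2 had 10.8, MCM3 10.3 and MCM6 8.76. MCM4 had 13.5, but the summit of that peak lay 855 bp upstream of its canonical TSS, inside the neighbouring gene PRKDC, which starts on the other strand. The median over MCM2 to MCM7 was 10.5. Within the licensing genes, 35 of 105 pairs had intervals apart. All 6 helicase subunit genes had an E2F word within 100 bp of the canonical TSS, strong MCM7 and weak MCM5 included.

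The helicase activation genes had a median of 10.6, and 6 of 9 reached 10. GINS1 was strongest (17.7, interval 14.1 to 22.1, 78 fragments, chr20:25387969-25389091), and TOPBP1, a scaffold of origin firing and checkpoint signalling, was weakest (8.67, interval 6.25 to 11.7, 40 fragments, chr3:133380068-133381252). The other GINS subunits had 15.5 at GINS3, 13.3 at GINS4 and 10.56 at GINS2, and the GINS median was 14.4. With the outermost TSS of each gene alone GINS1 had 7.86, and GINS2 and GINS3 had no peak. The origin firing kinase had 10.58 at CDC7 and 10.1 at its activator DBF4. CDC45, the helicase cofactor, had 9.45 and MCM10, needed for helicase activation, 9.21. The intervals were apart in 8 of 36 pairs of this role, so those of most pairs overlapped.

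The polymerase genes had the lowest median of the roles, 9.58, with 5 of 12 at 10 or more. When only the outermost TSS of each gene was used, their median was 10.2 and no longer the lowest. POLE3, an accessory subunit of polymerase epsilon, was strongest (20.0, interval 16.1 to 24.6, 88 fragments, chr9:116172060-116173647). POLD4, the small subunit of polymerase delta, was weakest of all 52 genes (3.97, interval 2.86 to 5.37, 40 fragments, chr11:67120777-67121589). Its 40 fragments lay over a background of 9.33, while the same 40 at TOPBP1 lay over 3.73 and gave 8.67. The intervals of 36 of 66 pairs were apart (54.5%).

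The spread was present within each enzyme. In polymerase epsilon, which makes the leading strand, POLE had 19.4 beside POLE3, while POLE2 had 9.72 and POLE4 9.44, and the median was 14.6. In polymerase delta, which makes the lagging strand, POLD1 had 10.6 and POLD2 6.24, and the median was 8.42. POLD3 had 18.3, but that peak lay 99201 bp upstream of its canonical TSS, near an upstream start and over the promoter of LIPT2, and the peak at the canonical TSS had 8.19. In polymerase alpha and primase, which lay down the primers, PRIM1 had 11.1, POLA2 9.37, PRIM2 6.24 and POLA1 5.72, with a median of 7.81.

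The clamp and Okazaki genes had a median of 15.0, and 8 of 8 reached 10. RFC3, a clamp loader subunit, was strongest (23.1, interval 18.9 to 28.0, 102 fragments, chr13:34391917-34392566), and FEN1, the flap endonuclease that trims Okazaki fragments, was weakest (11.3, interval 9.03 to 13.9, 84 fragments, chr11:61559224-61561679). LIG1, the ligase that seals the fragments, had 18.2 and PCNA, the clamp, 17.3. Every interval of this role lay above the coding median of 8.67, but with the outermost TSS of each gene alone PCNA had 4.72 and RFC5 had no peak. The other loader subunits had 16.6 at RFC4, 13.5 at RFC2, 13.04 at RFC5 and 12.5 at RFC1, a median of 13.5 over the 5. The RFC4 peak had its summit 16398 bp into the gene and overlapped EIF4A2, and the peak at the canonical TSS of RFC4 had 14.6.

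Replication protein A coats single-stranded DNA, and its 3 subunit genes had overlapping intervals. RPA1 had 12.4 (interval 9.49 to 16.0, 58 fragments, chr17:1732691-1733902). RPA2 had 10.4 (interval 8.20 to 12.9, 77 fragments, chr1:28240601-28241662). RPA3 had 11.3 (interval 8.61 to 14.6, 57 fragments, chr7:7679379-7680698). The intervals of 0 of 3 pairs were apart. The RPA3 peak lay 78216 bp into the gene from its canonical TSS, at an alternative start, and overlapped the promoter of UMAD1.

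The fork protection genes had the largest median of the roles, 15.4, with 3 of 4 at 10 or more, but a group of 4 gives little to compare. This median was 12.1, and not the largest, when only the outermost TSS of each gene was used. TIPIN had the strongest peak of all 52 genes (28.1, interval 23.4 to 33.4, 124 fragments, chr15:66648173-66649647), at the 97.8th percentile of bound coding genes. The best RFC4 peak, with its summit 16398 bp into that gene and so not at its canonical TSS, had the same 124 fragments. Its background was 6.53, against the floor of 3.45 at TIPIN, and its fold enrichment was 16.6. TIMELESS, whose protein forms a complex with that of TIPIN, had 15.6 (interval 12.4 to 19.4, 80 fragments, chr12:56842486-56843704). The intervals of these partners were apart.

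CLSPN, which encodes the checkpoint mediator claspin, had 15.2 (interval 11.9 to 19.0, 74 fragments, chr1:36234329-36236006). WDHD1, which links the helicase to polymerase alpha, had 9.09 (interval 6.61 to 12.2, 42 fragments, chr14:55493292-55494421). TIPIN stood above each of the other fork protection genes, TIMELESS and CLSPN overlapped, and TIMELESS stood above WDHD1. MCM8, a helicase paralog that acts in repair, had 11.4 (interval 8.69 to 14.6, 59 fragments, chr20:5930906-5931754).

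To compare the 3 roles named at the outset, licensing, polymerase and fork protection, medians of 11.5, 9.58 and 15.4 were set beside the coding median of 8.67. Between licensing and polymerase genes the intervals were apart in 75 of 180 pairs (41.7%), between licensing and fork protection in 25 of 60 (41.7%), and between polymerase and fork protection in 23 of 48 (47.9%). The ranges overlapped, from 4.86 to 17.1, from 3.97 to 20.0 and from 9.09 to 28.1. Within roles, the intervals were apart in 33.3% of licensing, 54.5% of polymerase and 66.7% of fork protection pairs. Over all pairs of replication genes the share was 35.7%. The share was not counted for other bound coding genes. Whether these roles differ more than other sets of bound genes was therefore not tested. With 1 library there was no test of the differences between roles. The fork protection median also rested on which start sites were counted, and was 12.1 with the outermost TSS of each gene alone, where the TIPIN peak became a different one with 8.54.

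**Figure D2:**
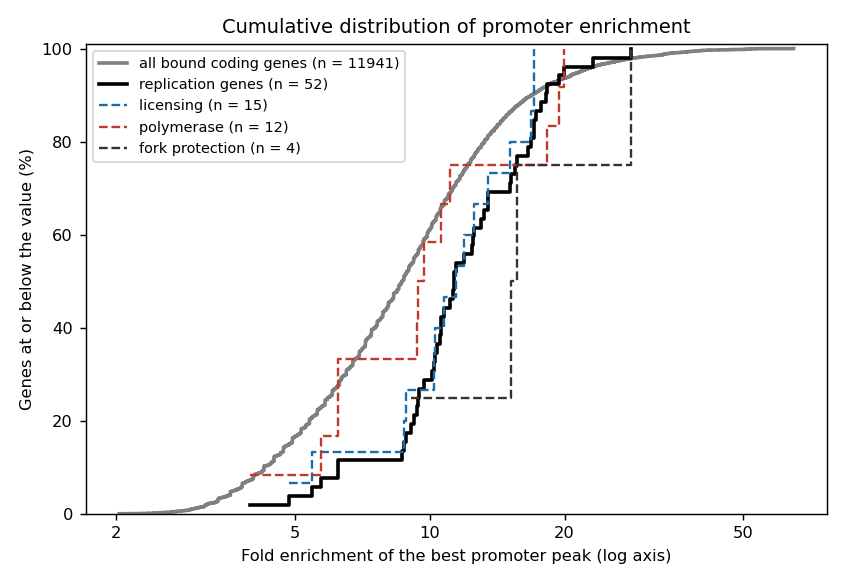
Share of genes (vertical axis, percent) at or below each fold enrichment of the best promoter peak (horizontal axis, log scale), for all bound coding genes, the 52 replication genes and 3 of their roles. The replication genes run to the right of all bound coding genes through the middle of the range, with medians of 11.3 and 8.67, and of the 3 roles shown the polymerase genes start lowest, at 3.97.

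The summits lay close to start sites. They were within 100 bp of a TSS in 41 of 52 genes (78.8%), against 58.6% of bound coding genes, and the median distance to the canonical TSS was 70.5 bp, against 126 bp. By position in the canonical transcript, 23 summits lay in the 5′ UTR, 18 upstream, 7 in an intron and 4 in a coding exon. The summit of the PCNA peak fell on the TSS itself (0 bp), while that of CDC7 lay 608 bp downstream. The peaks were also wider, with a median of 1126.5 bp against 865 bp.

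A second promoter peak or more was found for 30 of 52 genes (57.7%), against 46.9% of bound coding genes, and the 52 genes had 129 promoter peaks in all. The second peak reached a fold enrichment of 5 in 9 genes (17.3%, against 14.9% of bound coding genes) and of 10 in 2 (3.85%, against 1.91%), CDT1 (11.1 beside its best of 11.5) and RFC4. MCM4, which has 25 annotated TSSs, had 14 promoter peaks of which the second had 4.72. Inside the gene bodies and outside the promoters, 37 genes (71.2%, against 54.0% of bound coding genes) had 152 further peaks. The strongest of these, in FEN1, had a fold enrichment of 9.55.

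To see how the E2F words lay relative to the binding, the summit of the strongest peak at the canonical TSS was measured against the word nearest to that TSS. All 37 words lay inside that peak. The search made this likely, since the words lay within 100 bp of the TSS, the peak was taken there, and peaks were wide. These positions were not counted for other bound coding genes, so they describe the 37 genes only. The summit itself was often elsewhere. The median gap was 62 bp (range 2 to 840 bp), and the summit lay downstream of the word in 24 genes and upstream in 13. Of the words within 100 bp of the TSS, the one nearest to the summit was over 50 bp from it in 22 genes. LIG1 was among these, with a further word outside that window and 18 bp from its summit. At RFC3 the gap was 6 bp and at POLE 27 bp, while at MCM5 it was 163 bp and at MCM4 840 bp. The genes with a word had a median fold enrichment of 11.5 and the 15 without one 11.3, a small difference. Over all bound coding genes the medians were 9.44 with a word and 8.54 without.

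**Figure D3:**
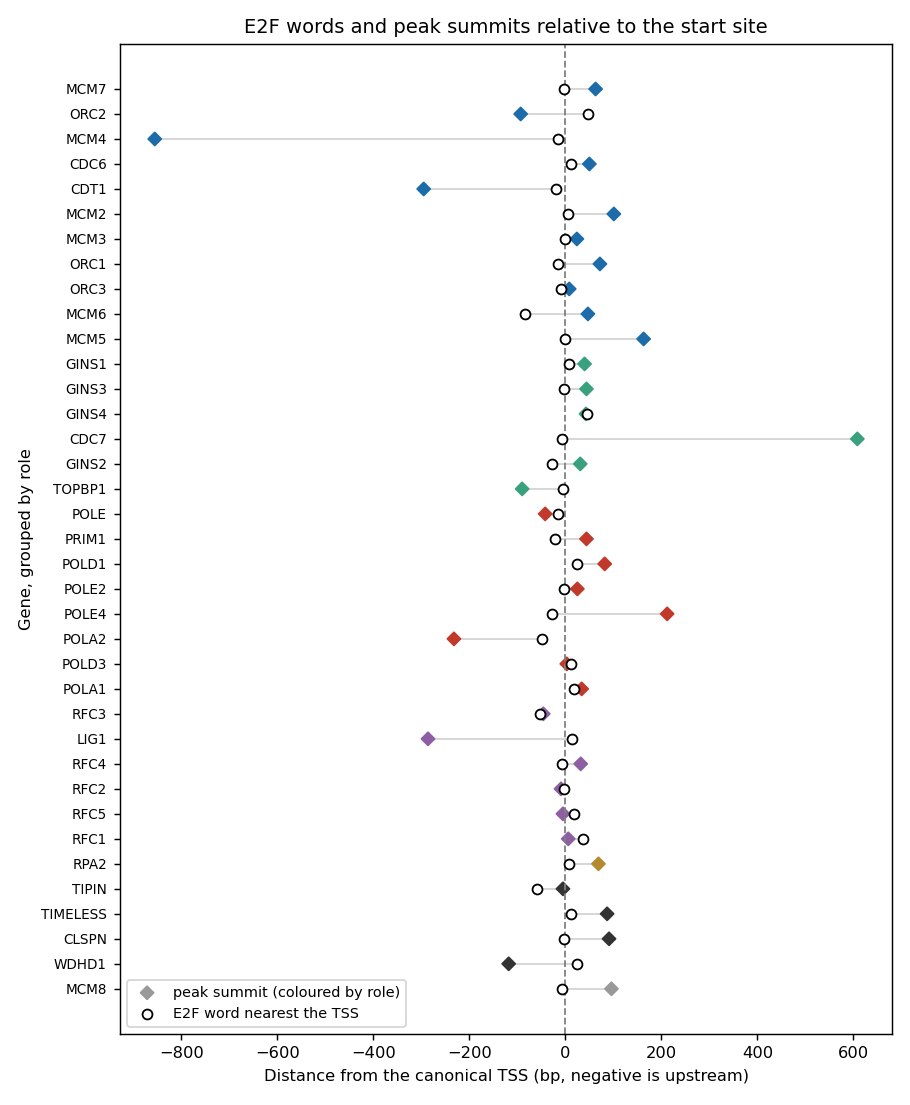
Distance from the canonical TSS (horizontal axis, bp, negative is upstream) of the E2F word nearest the TSS (open circles) and of the peak summit (filled diamonds, coloured by role) for the 37 replication genes with a word within 100 bp of that TSS. The words gather at the TSS, 25 of them within 20 bp, and the summits spread from 855 bp upstream (MCM4) to 608 bp downstream (CDC7).

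Motifs were also counted within 50 bp of the summit of the best promoter peak. An E2F word was found there in 15 of 52 genes (28.8%), against 8.93% of bound coding genes. They were ORC3, CDC6, MCM3, GINS1, GINS3, GINS4, POLA1, POLE, POLE2, RFC1, RFC2, RFC3, RFC5, LIG1 and RPA1. By role these were 5 of 8 clamp and Okazaki genes, 3 licensing, 3 helicase activation, 3 polymerase, 1 single-strand binding and 0 of 4 fork protection genes. All 4 fork protection genes carried a word at the TSS. The 0 depended on the 50 bp window, as 3 of the 4 had a word within 100 bp of the summit. The clamp and Okazaki count was 5 with either window. The median fold enrichment was 13.04 with a word at the summit and 10.8 without, and over all bound coding genes 9.76 and 8.56.

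The other motifs were at or below their backgrounds. The CHR element (TTTGAA or TTCGAA) was found in 2 of 52 genes (3.85%), PRIM2 and POLD1, against 3.93% of bound coding genes. The MYB core AACNG was found in 17 (32.7%), against 39.1%. The CCAAT box (CCAAT) was found in ORC2 alone (1.92%), against 10.0%, the ETS core CCGGAAG in FEN1 alone (1.92%), against 8.54%, and the GC box GGGCGG in 11 genes (21.2%), against 29.3%. All were searched on both strands. Widening the search to 100 bp gave an E2F word in 28 genes (53.8%) and a CHR element in 4 (7.69%), against 16.3% and 7.48% of bound coding genes.

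**Figure D4:**
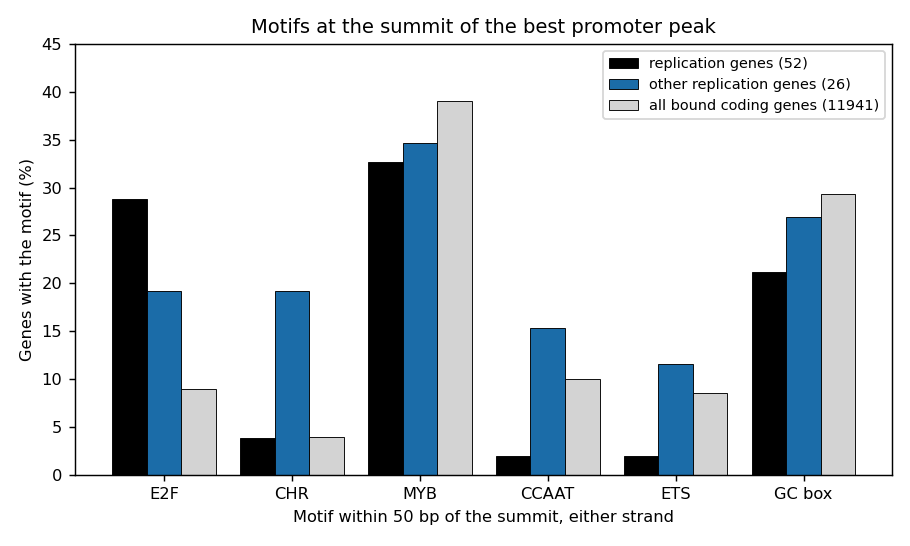
Share of genes (vertical axis, percent) with each motif within 50 bp of the summit of the best promoter peak, for the 52 replication genes, 26 other replication genes and all 11941 bound coding genes. The E2F bar of the replication genes, 28.8%, stands above that of all bound coding genes, 8.93%, and their CHR bar, 3.85%, is level with 3.93%.

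Some promoters serve neighbours on the opposite strand. A coding gene that starts head to head with the replication gene was found for 15 of 52 (28.8%), against 15.1% of bound coding genes. Among them were ORC1 with PRPF38A, ORC6 with VPS35, MCM7 with AP4M1, CDC45 with UFD1, POLE with PXMP2, FEN1 with TMEM258 and WDHD1 with SOCS4. The median fold enrichment was 11.4 with such a partner and 11.3 without. The best peak lay at another coding promoter too for 20 genes (38.5%), against 30.7% of bound coding genes, and for these the binding cannot be given to either gene alone.

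A further list of 26 replication genes outside the 52, such as the chromatin assembly factors, the RNase H2 subunits and alternative clamp loaders, was read in the same way. All 26 had a promoter peak, 18 of 26 with a fold enrichment of at least 10, and their median was 12.7. The strongest was MMS22L, a fork repair factor (29.2, interval 24.4 to 34.7), and the weakest MTBP, an origin firing factor (4.70, interval 3.22 to 6.64). An E2F word within 100 bp of the canonical TSS was found in 11 of them (42.3%), below the 71.2% of the 52 genes and above the 12.3% of all coding genes.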

How the data were processed

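The authors aligned single-end reads to hg19 with Bowtie2, and per the labels called narrow peaks with MACS2 (version 2.0.10 in the submitters' processing notes) against the input. The deposited list of 66954 peaks gives a score, the fold enrichment as a linear ratio, −log10 p-value and −log10 q-value, and the distance of the summit from the peak start. A cleaning step applied to the list is not described in the sources used here. A whole-number pileup was solved from fold enrichment and −log10 p for 66954 of 66954 peaks (median pileup 20 fragments, Poisson interval 12.2 to 30.9). With the MACS2 human genome preset and the smallest peak width, 164 bp, as fragment length, the background floor of 3.45 fragments corresponds to about 56800000 ChIP reads. Duplicate fragments are not independent molecules, so intervals cover counting error only. That is the error of the pileup, with the background held fixed.

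Genes and TSSs came from GENCODE 44 lifted to GRCh37, on chromosomes 1 to 22 and X, and 0 peaks lay beyond a chromosome end. The canonical TSS was known for 19819 coding genes. The pileup solver and overlap steps were tested on simulated data. Python 3.11.15, pandas 2.3.3, numpy 2.4.6, scipy 1.17.1 and pysam 0.24.0 were used. No test between gene groups was made, because 1 library has no replicate and genes are not replicates.

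Named genes were the strongest and weakest of each role, all single-strand binding and fork protection genes, and the strongest and weakest of the other replication genes. The remaining members are given by fold enrichment. The members and lists were chosen with earlier results of these data known. Alternatives changed the promoter window (500 bp either side, or 5000 bp before to 1000 bp after a TSS), asked for the summit inside it, took only the outermost or canonical TSS, kept peaks with −log10 q or fold enrichment of 5 or more, or widened the motif window to 100 bp.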

Additional observations from a re-analysis of the deposited data

How the results depend on the processing

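All 52 genes kept a promoter peak with a 500 bp window (58.1% of coding genes), with 5000 bp upstream to 1000 bp downstream (61.8%), with the summit in the window (58.6%) and with a −log10 q of at least 5 (56.0%). A fold enrichment of at least 5 left 50 (49.6% of coding genes), without MCM5 and POLD4. The outermost TSS alone left 46 (53.2%), without GINS2, GINS3, PRIM2, POLD4, RFC5 and RPA3, and moved GINS1 from 17.7 to 7.86 and PCNA from 17.3 to 4.72. The canonical TSS alone, an alternative chosen after seeing the data, left 51 (55.8%) and moved POLD3 from 18.3 to 8.19. Over these alternatives the median fold enrichment ran from 10.95 to 11.4 for all replication genes, from 11.5 to 11.7 for licensing and from 9.40 to 10.2 for polymerases. The median of bound coding genes ran from 8.63 with the summit in the window to 9.66 with a fold enrichment of at least 5. In that last setting the replication genes had 11.4. The fork protection median fell from 15.4 to 12.1 with the outermost TSS alone, where the TIPIN value became 8.54. In that setting the fork protection median was no longer the largest of the roles, and the polymerase median was no longer the lowest. Within 100 bp in place of 50 bp of the summit, the E2F count rose from 15 to 28 and the CHR count from 2 to 4, as the wider window holds more bases. No paired analysis was possible because there was 1 ChIP and 1 input library, and for the same reason no library could be left out. Counting error of the pileup, the only error estimated here, left the intervals of most pairs of genes overlapping. It says nothing of how another immunoprecipitation would rank the genes. The cause of the differences between genes was not tested.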
